A study of Danio rerio with 6 samples.

Results

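The miR-10 family of the hox clusters was examined in zebrafish ZF4 cells through 5 of the 414 miRNAs in the deposited table: dre-miR-10a-5p, dre-miR-10b-5p, dre-miR-10c-5p, dre-miR-10d-5p and dre-miR-10c-3p. They were chosen by name with earlier results of these data known. Of them 4 are strands from the 5′ arm of their hairpins and 1 is a partner strand from the 3′ arm. The table holds 4 other miR-10 partner strands, close to undetected, which were not members. ZF4 is a fibroblast cell line from zebrafish embryos, and a line in culture stands for 1 cell type outside the animal. Small RNA was sequenced from 3 control samples grown at 28°C and from 3 cold acclimation samples moved to 18°C for 30 days in the same medium, with no other treatment or genetic change named for either group, and each condition is described as having biological replicates. Levels are given in TPM, the number of reads of a miRNA among each 1000000 miRNA reads of its library, without a length term.

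A miRNA is cut from a hairpin RNA and guides a silencing complex to messenger RNAs that pair with its seed, the bases near its 5′ end. Genes of the miR-10 family lie inside the hox clusters of animals, next to the transcription factor genes that lay out the head to tail axis, and zebrafish miR-10 is known to repress neighbouring hox genes such as hoxb1a and hoxb3a. The family is related in sequence to miR-99 and miR-100. The other miRNA family of the hox clusters, miR-196, lies towards their posterior end.

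The RefSeq gene order of assembly GRCz12tu, used here for names and neighbours alone, holds 5 genes for these miRNAs. mir10c lies between hoxb5a and hoxb4a, inside the span annotated for hoxb3a. mir10a has hoxb5b on one side and skap1 on the other, inside the span annotated for hoxb1b. The dre-miR-10b-5p strand is 1 entry in the table, while the annotation has mir10b-1 between hoxd4a and hoxd9a and dre-mir-10b-2 between hoxc5a and hoxc4a, so its level cannot be divided between these genes. mir10d has no hox gene as a neighbour. It lies between lnpk and mtx2, the genes that flank the hoxd cluster in vertebrates, at the place of a zebrafish cluster that has lost its hox genes.

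The libraries held between 11748241 and 14960610 miRNA reads, as given by the step between low TPM values, and the members had between 321 and 449822 reads in each library. The labelled cell type was compared with its miRNAs. All 8 fibroblast markers listed were detected, but so were 382 to 396 of the 414 miRNAs in each library. Detection alone therefore does not tell cell types apart. dre-miR-21 was the most abundant miRNA. The summed level of the 8 markers lay between 388748 and 428403 TPM, of which dre-miR-21 alone made up between 379977 and 421105 TPM. No list of muscle, nerve, liver or blood markers summed to more than 12.6 TPM in any library, those of epithelia lay between 96.8 and 192 TPM, and the miR-430 strands of the early embryo between 34.97 and 254 TPM. Control replicate 3 stood apart from the other controls, so each call on a member is given with and without it. In that library 7 of the 310 tested miRNAs lay above the mean of control replicates 1 and 2 by more than 1 in log2(TPM + 1), and 17 lay below it by as much. Against the mean of its other controls, control replicate 1 had 6 above and 0 below, and control replicate 2 had 8 and 0. Control replicate 3 thus had the largest count below. The means used for control replicates 1 and 2 include control replicate 3, so low values in it can add to their counts above. Whether the 7 above in control replicate 3 are usual cannot be read from these counts.

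dre-miR-10c-5p was the main miR-10 strand of these cells and the member that rose under cold acclimation. Its level was 14371, 13927 and 16430 TPM in control replicates 1, 2 and 3. In cold acclimation replicates 1, 2 and 3 it was 31901, 31429 and 32208 TPM. Every cold acclimated library lay above every control library, which held for 29.7% of all tested miRNAs. The lowest cold value exceeded the highest control value by 91.3%. The mean went from 14910 ± 1335 to 31846 ± 392 TPM (SD, n = 3 each), a 2.14-fold rise. It was the tenth most abundant miRNA in each control library and the fifth in each cold library.

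**Figure D1:**
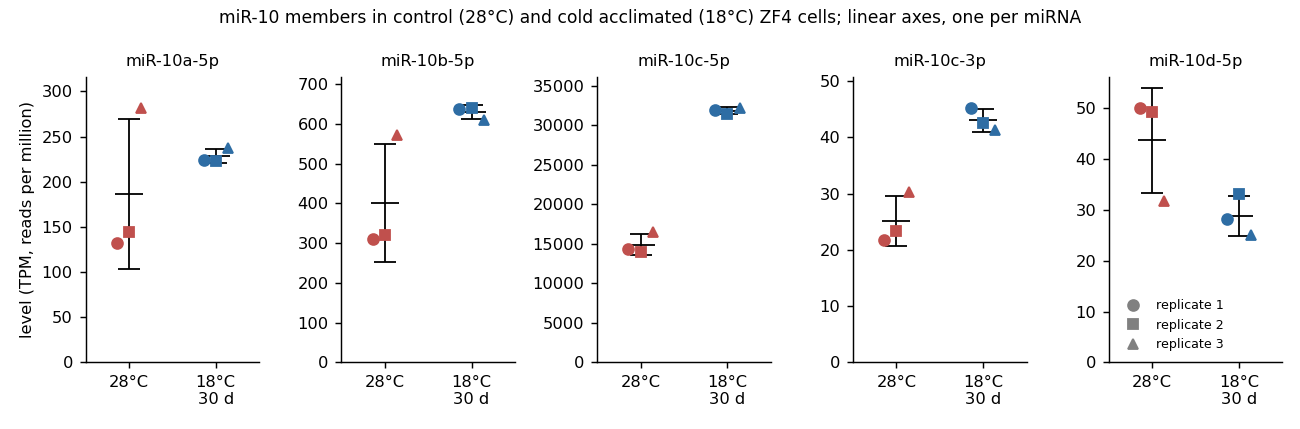
Level of each miR-10 member in TPM (reads per 1000000 miRNA reads) in the 3 control libraries at 28°C (red) and the 3 cold acclimation libraries at 18°C (blue), on linear axes from 0, 1 axis per miRNA; circles, squares and triangles are replicates 1, 2 and 3, and black bars are the mean ± SD. The 3 cold libraries sit together near 31846 TPM for dre-miR-10c-5p, while control replicate 3 lies apart from the other controls for dre-miR-10a-5p, dre-miR-10b-5p and dre-miR-10d-5p.

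The log2 fold change of dre-miR-10c-5p was 1.10 (95% confidence interval 0.87 to 1.33, standard error 0.10, adjusted p = 4.2e-05), from limma on log2(TPM + 1) over the 310 miRNAs with a mean above 1.5 TPM, with Benjamini-Hochberg adjustment. A miRNA is said here to rise or fall where its adjusted p was under 0.01. Among all tested miRNAs 16.5% rose and 14.5% fell, and 1 of the 5 members rose and none fell. By p-value dre-miR-10c-5p was 8th of the 310 miRNAs, and by log2 fold change it was 32nd. It was under the 2.5-fold change that the study asked of a DE-miRNA in addition, as were the other members, so 0 of the 5 were DE-miRNAs, where 7.42% of all tested miRNAs passed upwards and 4.19% downwards. The median log2 fold change of the members was 0.71, against 0.02 over all tested miRNAs. This median is the value of dre-miR-10b-5p, which did not itself pass the test. The members are not independent, as dre-miR-10c-5p and dre-miR-10c-3p come from the same hairpin.

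The rise of dre-miR-10c-5p passed the test in each of 16 alternatives run, with adjusted p between 4.0e-07 and 0.00094. Without control replicate 3 the log2 fold change was 1.17 (adjusted p = 4.0e-07 from limma). The smallest value, 0.80, came with the clean reads of the libraries as library sizes, a scaling that shifted the median of all tested miRNAs by -0.25. Relative to that median the value was 1.02, compared with 1.08 in TPM. TPM is a share of the miRNA reads, so a higher level per cell and a smaller contribution of other miRNAs cannot be told apart from it, and neither can a change in the cells present and a change in RNA per cell.

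**Figure D2:**
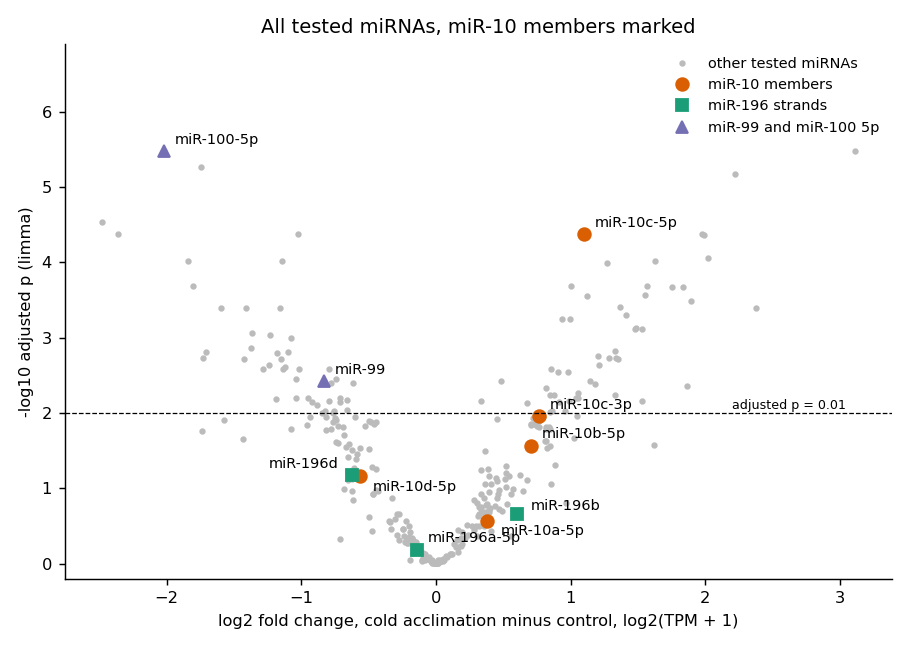
Log2 fold change of log2(TPM + 1), cold acclimation minus control, against -log10 of the limma adjusted p for the 310 tested miRNAs (grey points), with the 5 miR-10 members (orange circles), the 3 tested miR-196 strands (green squares) and the 5p strands of miR-99 and miR-100 (purple triangles); the dashed line is an adjusted p of 0.01. dre-miR-10c-5p lies at 1.10 well above the line, dre-miR-10c-3p at 0.76 just under it, and dre-miR-10d-5p is the member to the left of 0.

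The partner strand of the same hairpin, dre-miR-10c-3p, was also higher in each cold library but narrowly missed the threshold. It had 21.8, 23.4 and 30.3 TPM in control replicates 1, 2 and 3. In the cold acclimation replicates it had 45.3, 42.6 and 41.3 TPM. The groups did not overlap, which held with the cold libraries above for 29.7% of all tested miRNAs. The mean was 25.2 ± 4.51 TPM in control and 43.1 ± 2.04 TPM in cold acclimated cells, with a log2 fold change of 0.76 (95% confidence interval 0.32 to 1.21, adjusted p = 0.011 from limma). This value lies close to the threshold of 0.01. It passed in 5 of 16 alternatives, among them median-of-ratios scaling (adjusted p = 0.0095) and the fit without control replicate 3 (log2 fold change 0.90, adjusted p = 0.0019).

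The balance between the strands of the mir10c hairpin was therefore compared within each library, since the library total cancels in a ratio of TPM values. The 5′ strand had 660, 595 and 543 TPM per TPM of the 3′ strand in control replicates 1, 2 and 3. In the cold acclimation replicates the ratio was 704, 738 and 780. All cold ratios lay above all control ratios. Such a lack of overlap, in either direction, was found for 60.7% of all pairs of tested miRNAs, so it is not particular to these strands. The log2 ratio, tested on TPM + 1 values, was higher by 0.33 at 18°C (exact permutation test, two-sided, p = 0.1, adjusted p = 0.125 over 10 pairs of members), and by 0.31 with TPM + 0.1 and 0.42 with TPM + 5. With 3 libraries in each condition no smaller p than 0.1 was possible.

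dre-miR-10b-5p, the strand shared by the hoxd and hoxc loci, was the next most abundant member. Its level was 312, 320 and 572 TPM in control replicates 1, 2 and 3. It was 638, 641 and 609 TPM in the cold acclimation replicates. Control replicate 3 lay near the cold libraries, and the lowest cold value exceeded it by 6.52%, so the groups were separate by a small margin. Cold libraries lay above all controls for 29.7% of all tested miRNAs. The mean was 401 ± 148 TPM in control and 629 ± 17.6 TPM in cold acclimated cells. The log2 fold change was 0.71 (95% confidence interval 0.19 to 1.22) and did not pass the test (adjusted p = 0.027 from limma). Without control replicate 3 it was 0.99 and passed (adjusted p = 5.4e-05 from limma). Control replicate 3 had 1.81 times the mean of the other controls.

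dre-miR-10a-5p, the strand of the hoxbb locus beside hoxb5b, did not separate the conditions. It had 132, 144 and 282 TPM in control replicates 1, 2 and 3. It had 224, 223 and 237 TPM in the cold acclimation replicates. Control replicate 3 was the highest of the 6 libraries, 2.04 times the mean of control replicates 1 and 2, while the cold libraries were close to each other. The mean was 186 ± 83.0 TPM in control and 228 ± 7.998 TPM in cold acclimated cells. The log2 fold change was 0.38 (95% confidence interval -0.22 to 0.98, adjusted p = 0.269 from limma), and without control replicate 3 it was 0.72 and passed (adjusted p = 0.0019 from limma).

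dre-miR-10d-5p, from the locus without hox genes, was the member with a lower mean at 18°C. It had 50.1, 49.2 and 31.7 TPM in control replicates 1, 2 and 3. It had 28.2, 33.1 and 25.1 TPM in the cold acclimation replicates. Control replicate 3 lay within the range of the cold libraries, so the groups overlapped. The mean was 43.7 ± 10.4 TPM in control and 28.8 ± 4.02 TPM in cold acclimated cells. The log2 fold change of -0.56 (95% confidence interval -1.08 to -0.04) did not pass the test (adjusted p = 0.069 from limma). Without control replicate 3 it was -0.77 and passed (adjusted p = 0.0062 from limma).

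Without control replicate 3, 4 members rose and 1 fell, where 21.9% of all tested miRNAs rose and 21.6% fell in the same fit. That fit sets 2 control libraries against 3. With any other library left out, dre-miR-10c-5p was the member that passed, in fits in which between 7.74% and 13.5% of all tested miRNAs rose. In control replicate 3 dre-miR-10a-5p ranked 6th and dre-miR-10b-5p 10th of the 310 miRNAs by how far they lay above the other controls. The fibroblast marker dre-miR-143 was the lowest of all on this measure, with 374 TPM against 4765 and 4665 TPM in the other controls. The remaining fibroblast markers differed by between -0.96 and -3.31 in log2(TPM + 1), apart from dre-miR-21 at 0.03 and dre-miR-199-3-3p at -0.02. dre-miR-430b-3p had 31.7 TPM in it against 144 and 182 TPM, and the epithelial marker dre-miR-200c-3p 47.8 TPM against 22.3 and 30.9 TPM. The tested epithelial markers lay above the other controls by 0.66 to 0.84 in log2(TPM + 1), apart from dre-miR-203b-3p at 0.02. The part of these differences in the values of the miR-10 members was not tested.

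Some of the other fibroblast markers differed between the conditions. By limma 2 of the 8 fell at 18°C and 0 rose, where 14.5% of all tested miRNAs fell and 16.5% rose. Their median log2 fold change was -0.70 against 0.02 over all tested miRNAs. The 8 include several strands of the same miRNAs, so they are not independent. Without control replicate 3, 7 of the 8 fell, where 21.6% of all tested miRNAs did. With any other library left out 0 or 1 fell, where between 5.81% and 9.35% of all tested miRNAs did. dre-miR-199-3p fell by 1.04 on the log2 scale (adjusted p = 0.0063 by limma) and dre-miR-199-3-3p by 0.79 (adjusted p = 0.0026). The rest of the 8 did not pass, among them dre-miR-143 with a log2 fold change of -0.19 (adjusted p = 0.890 by limma). dre-miR-214 had 1722, 1637 and 456 TPM in control replicates 1, 2 and 3 and 359, 332 and 406 TPM in the cold acclimation replicates (log2 fold change -1.58, adjusted p = 0.012). The embryonic strand dre-miR-430a-3p had 13.6, 17.2 and 2.35 TPM at 28°C and 31.7, 29.2 and 25.0 TPM at 18°C (log2 fold change 1.62, adjusted p = 0.026). None of the 3 miR-430 strands passed the test, and dre-miR-430b-3p overlapped between the conditions (log2 fold change 0.96, adjusted p = 0.158 by limma). Without control replicate 3 the median of the 3 was 0.39, and 1 rose, where 21.9% of all tested miRNAs did. Without control replicate 2 it was 1.43, and 1 rose, where 12.6% of all tested miRNAs did. The part of these markers in the miR-10 values was not tested.

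**Figure D3:**
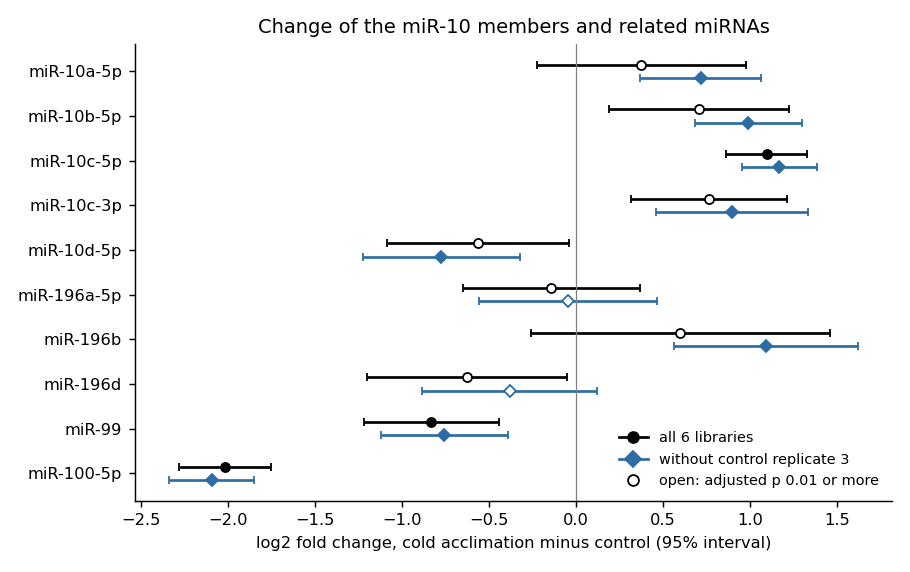
Log2 fold change of log2(TPM + 1), cold acclimation minus control, with its 95% confidence interval from limma, for the miR-10 members, the tested miR-196 strands and the 5p strands of miR-99 and miR-100; black circles use all 6 libraries, blue diamonds leave out control replicate 3, and filled symbols have an adjusted p under 0.01. Among the members the interval of dre-miR-10a-5p, -0.22 to 0.98, is the widest, and all 5 members have filled diamonds.

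The members differed among themselves in level. In both conditions dre-miR-10c-5p was followed by dre-miR-10b-5p and dre-miR-10a-5p, and no library of one member overlapped with a library of the next within a condition. The order of the lowest members differed between the conditions. dre-miR-10d-5p was above dre-miR-10c-3p in each control library, in control replicate 3 by a small margin of 31.7 to 30.3 TPM, and below it in each cold library. The ratio of dre-miR-10c-3p to dre-miR-10d-5p was 0.43, 0.48 and 0.95 in control replicates 1, 2 and 3. It was 1.60, 1.29 and 1.64 in the cold acclimation replicates. The log2 ratio was higher by 1.33 at 18°C (exact two-sided permutation test, p = 0.1, adjusted p = 0.125). TPM has no length term and mature miRNAs have nearly the same length, and levels are set side by side here on the TPM scale. Whether different strands were read with equal efficiency was not tested, so the order of members is an order of reads.

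Of the 10 pairs of members, 8 had within-library log2 ratios that did not overlap between the conditions. The 10 pairs reuse the 5 members, and 60.7% of all pairs of the 310 tested miRNAs had no overlap in this sense. In these 8 pairs p was 0.1 by the exact permutation test, the lowest that this design allows, and the adjusted p 0.125. The widest difference was that of dre-miR-10c-5p to dre-miR-10d-5p, which was higher by 1.66 at 18°C. The ratio of dre-miR-10a-5p to dre-miR-10b-5p was lower at 18°C by 0.33 on the log2 scale, with -1.23, -1.14 and -1.02 in control replicates 1, 2 and 3 and -1.50, -1.52 and -1.36 in the cold acclimation replicates. The pairs that overlapped were dre-miR-10a-5p with dre-miR-10d-5p (difference 0.94, exact permutation p = 0.3) and dre-miR-10b-5p with dre-miR-10c-3p (difference -0.06, exact permutation p = 1). Near-identical strands may share reads, and the sources used here do not say how a read that matched several miRNAs was counted, so ratios between 5p members may hold such shared reads.

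**Figure D4:**
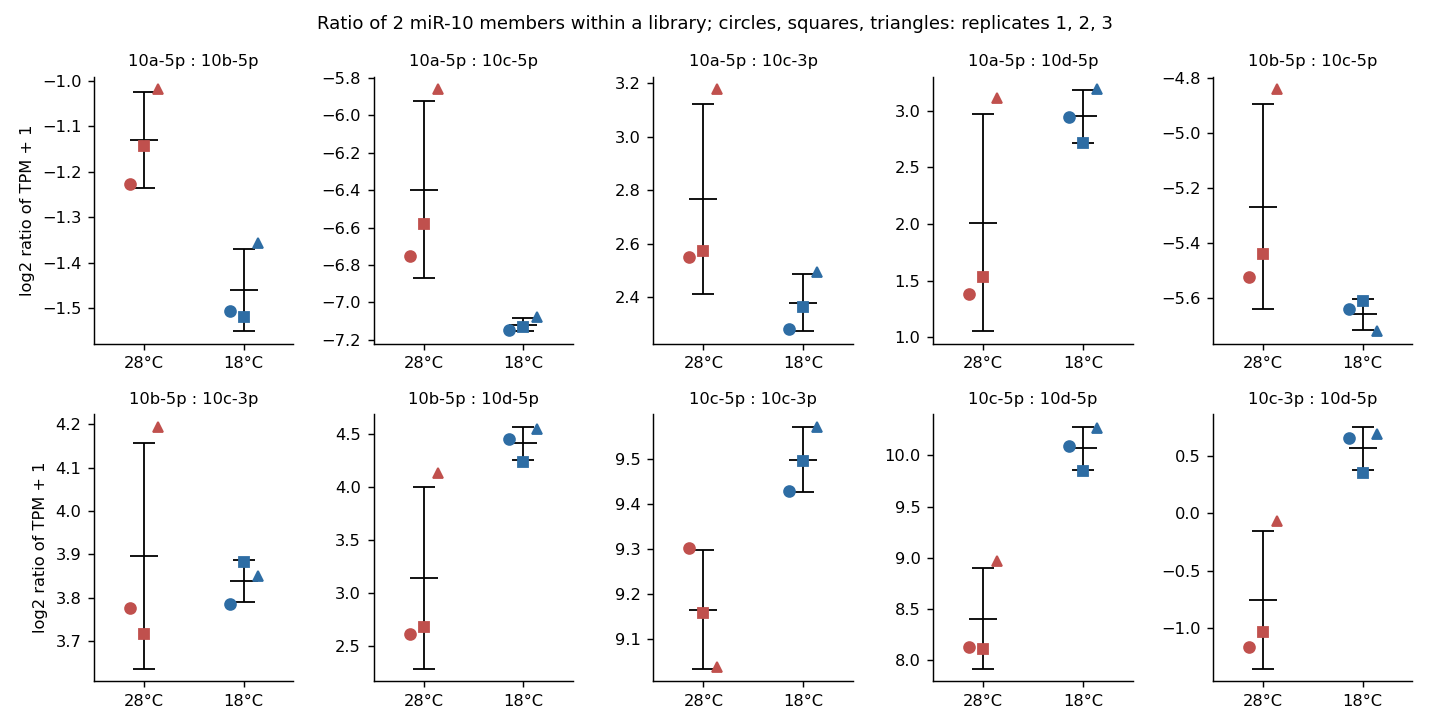
Log2 ratio of the TPM + 1 values of 2 miR-10 members within each library, 1 panel per pair, at 28°C (red) and 18°C (blue), with circles, squares and triangles for replicates 1, 2 and 3 and black bars for the mean ± SD; the axes do not start at 0. All panels with dre-miR-10d-5p as denominator are higher at 18°C on average, and the panels of dre-miR-10a-5p with dre-miR-10d-5p and of dre-miR-10b-5p with dre-miR-10c-3p are those in which the conditions overlap.

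Summed over the 5 members, the family held 14887, 14464 and 17346 TPM in control replicates 1, 2 and 3. It held 32837, 32369 and 33121 TPM in the cold acclimation replicates. As a share of the miRNA reads this was 1.56% ± 0.156 at 28°C and 3.28% ± 0.038 at 18°C (SD, n = 3 each). dre-miR-10c-5p made up 95.8% ± 0.984 of the sum at 28°C and 97.2% ± 0.074 at 18°C, so the sum followed it. Without dre-miR-10c-5p, the other members together held 656 ± 225 TPM in control and 929 ± 14.4 TPM in cold acclimated cells. Control replicate 3, with 916 TPM, lay among the cold libraries in that sum. The coefficient of variation between libraries was smaller in the cold group for each of the 5 members. There it was 1.23% for dre-miR-10c-5p and 3.51% for dre-miR-10a-5p, against 8.96% and 44.6% in control. The control values include control replicate 3, with 1.16 and 2.04 times the mean of the other controls for dre-miR-10c-5p and dre-miR-10a-5p. The spread without that library was not compared, so a tighter cold group cannot be read from these values.

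The partner strands of the other hairpins were close to undetected. dre-miR-10a-3p, dre-miR-10b-3p, dre-miR-10b-2-3p and dre-miR-10d-3p had between 0 and 8 reads in each library, and all 4 were below the mean of 1.5 TPM needed for a test. A count of 0 allows up to 3 reads, or 0.201 to 0.255 TPM depending on the library. The dre-miR-10c-3p strand was the exception in reads among the partner strands, with at least 321 in each library. Its 5′ strand had at least 190955 reads, whereas dre-miR-10a-5p had at most 4087 beside 1 to 7 reads of dre-miR-10a-3p. The balance of the strands was not compared between hairpins, so no difference in it can be read from these counts.

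miR-196, the other miRNA family of the hox clusters, was rare in ZF4 cells, and none of its strands passed the test. Its 5 strands in the table summed to 16.2, 20.1 and 39.8 TPM in control and 29.9, 27.4 and 20.7 TPM in cold acclimated cells. 3 of the 5 strands were tested. dre-miR-196b, whose gene lies with mir10c in the hoxba cluster, had 6.75, 8.75 and 23.2 TPM in control replicates 1, 2 and 3 and 21.2, 18.3 and 13.9 TPM in the cold acclimation replicates. As with dre-miR-10a-5p, control replicate 3 was the highest library. By limma its log2 fold change was 0.60 with all libraries (adjusted p = 0.218) and 1.09 without control replicate 3 (adjusted p = 0.0019). dre-miR-196d, from the hoxab cluster, was lower in each cold library, with 5.80, 6.47 and 5.08 TPM against 6.88, 8.83 and 13.7 TPM. Cold libraries lay below all controls for 28.4% of all tested miRNAs. dre-miR-196d did not pass the test (log2 fold change -0.63, adjusted p = 0.067 from limma). Without control replicate 3, its highest library, the log2 fold change was -0.38 (adjusted p = 0.186 from limma). dre-miR-196a-5p, at 1.15 to 2.48 TPM, differed by -0.14 on the log2 scale. dre-miR-196a-3p and dre-miR-196c were too low to be tested, with at most 8 reads in a library.

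The related strands dre-miR-100-5p and dre-miR-99 fell while dre-miR-10c-5p rose. dre-miR-100-5p had 101546, 100583 and 86408 TPM in control replicates 1, 2 and 3 and 21719, 22277 and 27372 TPM in the cold acclimation replicates. By limma it fell by 2.02 on the log2 scale (adjusted p = 3.3e-06). dre-miR-99 fell by 0.83 on that scale (adjusted p = 0.0038 by limma), a call that was lost without cold acclimation replicate 1 (adjusted p = 0.025), cold acclimation replicate 2 (0.016) or control replicate 1 (0.017). The order of the 2 most abundant strands of the related families turned with this. dre-miR-10c-5p had 0.157 ± 0.029 times the level of dre-miR-100-5p at 28°C and 1.35 ± 0.155 times its level at 18°C (SD, n = 3 each). This ratio does not depend on the library totals. Against dre-miR-21, the most abundant miRNA, the ratio of dre-miR-10c-5p went from 0.038 ± 0.0029 to 0.081 ± 0.0037. TPM values of a library sum to 1000000, so the level of dre-miR-10c-5p is not independent of that of dre-miR-100-5p. The part of dre-miR-100-5p in the rise of dre-miR-10c-5p was not tested. With totals that did not include dre-let-7a and dre-miR-100-5p, a choice made after seeing the data, the log2 fold change of dre-miR-10c-5p was 0.95 (adjusted p = 9.8e-05 from limma).

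**Figure D5:**
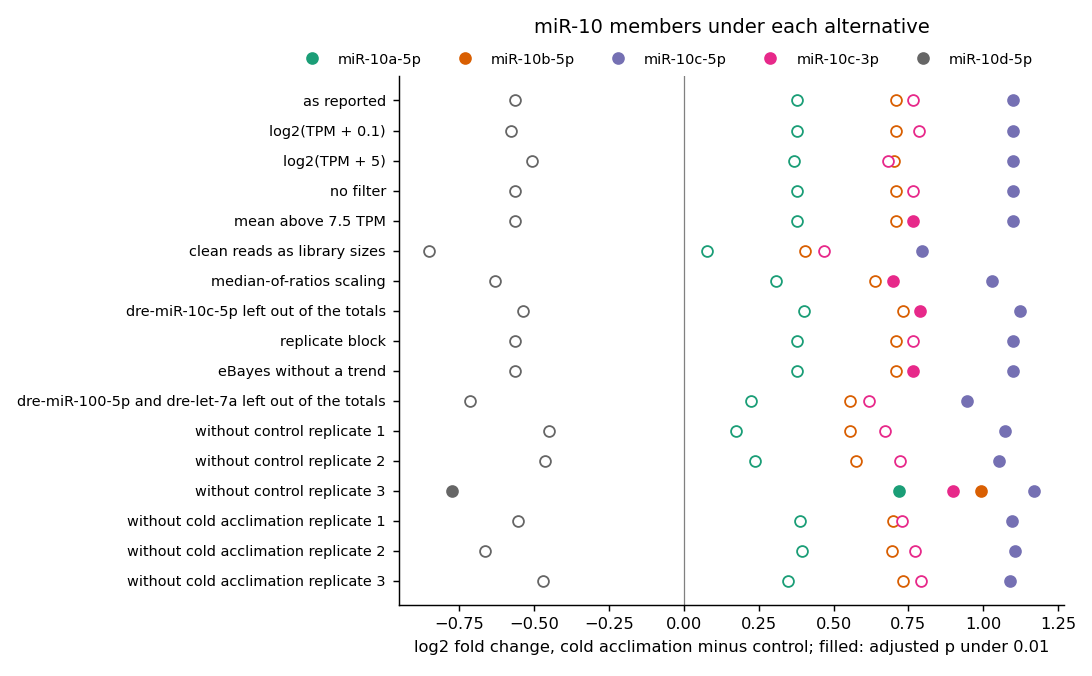
Log2 fold change of log2 values, cold acclimation minus control, of each miR-10 member (colours) as reported and under each of 16 alternatives (rows), where filled points have an adjusted p under 0.01. dre-miR-10c-5p is filled in all rows and lies between 0.80 and 1.17, the member dre-miR-10d-5p stays below 0, and all members are filled without control replicate 3.

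Other miRNAs with profiles like those of the members were sought by the root mean square difference of log2(TPM + 1) over the 6 libraries, each miRNA centred on its mean, outside the miR-10 strands. Nearest to dre-miR-10c-5p were dre-miR-456 (0.10), dre-miR-181c-5p (0.13), dre-let-7e (0.14), dre-miR-27b-5p and dre-miR-27a-5p (0.18 each). These miRNAs were chosen for likeness to dre-miR-10c-5p, so controls that lay close together and higher cold libraries follow from that choice. dre-miR-456 went from 519 ± 20.2 to 1132 ± 105 TPM, and dre-let-7e, a member of the let-7 family known from the timing of development, from 2985 ± 131 to 5999 ± 490 TPM. Nearest to dre-miR-10c-3p were dre-miR-192 (0.11) and dre-miR-375 (0.15), a miRNA of pancreatic islets.

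The neighbours were chosen on the same 6 libraries, so those of members apart in control replicate 3 were apart there too because of that choice. Nearest to dre-miR-10a-5p were dre-miR-200c-5p (0.10) and dre-miR-203a-3p (0.16), strands of families known from epithelia, at low levels. dre-miR-203a-3p had 3.48, 5.11 and 7.24 TPM in the controls and 6.21, 6.89 and 6.73 TPM in the cold libraries. Nearest to dre-miR-10b-5p were dre-miR-27c-3p and dre-miR-200c-5p (0.16 each), of which dre-miR-27c-3p had 1982, 2092 and 3333 TPM in the controls and 4384, 5017 and 4838 TPM in the cold libraries. Nearest to dre-miR-10d-5p were dre-miR-221-3p (0.07), known from blood vessels and dividing cells, and dre-miR-153b-3p (0.10). dre-miR-221-3p had 8090, 8807 and 6042 TPM in the controls and 5292, 6155 and 4718 TPM in the cold libraries. This likeness is a description over 6 libraries that share their totals.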

How the data were processed

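Small RNA libraries of 3 control and 3 cold acclimation ZF4 samples were sequenced as 50-bp reads. The authors trimmed adapters, kept good reads of 17 to 35 nt and mapped them with bowtie 2.3.0 to miRBase 22, and miRCat gave the predicted miRNAs. The deposited values are CPM, named TPM by the authors, scaled to 1000000 miRNA reads per library, for 349 known and 65 predicted miRNAs. One read was worth 0.0668 to 0.0851 TPM. No columns were left unused (0) and no libraries were identical (0 pairs).

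log2(TPM + 1) was compared without pairing by limma 3.58.1 (R 4.3.3, eBayes with its trend option) where the mean exceeded 1.5 TPM, which 310 miRNAs did. The thresholds, adjusted p under 0.01 and 2.5-fold, followed the study, and the filter, 17.6 to 22.4 reads, stood in for its minimum on the mean expression level, taken here to be in reads. Within-library ratios were tested by exact permutation (two-sided, scipy 1.17.1), adjusted over 10 pairs. The fit was checked on simulated data with noise drawn separately for each miRNA, so without a library that stands apart. In each of 20 draws 200 of the 310 miRNAs were given a log2 change of 1 or 2, in either direction, whereas 31% were called in the data. The fit called 74.8% of miRNAs given a log2 change of 1 and 0.591% of those left unchanged. The share called depends on how many miRNAs change, so these rates may not hold for the data. The members and lists were chosen with earlier results of these data known. The miRNAs named are the members, the miR-10, miR-196, miR-99 and miR-100 strands listed, and those nearest in profile, 5 for dre-miR-10c-5p and 2 for each other member. dre-let-7a is named only as left out of the totals in 1 alternative, chosen after seeing the data. dre-miR-21, dre-miR-143, dre-miR-199-3p, dre-miR-199-3-3p, dre-miR-200c-3p, dre-miR-203b-3p, dre-miR-214, dre-miR-430a-3p and dre-miR-430b-3p, from the marker lists, were chosen after their values were seen. Alternatives were other pseudocounts, filters and library sizes, a replicate block, no variance trend and each library left out. Low values were whole multiples of 1 read. The check covered only 84 to 98 values per library, a number set by its cutoff for low values. This was taken as too few to treat the deposited values as read counts, and count tests were not run. No mature sequences are shown.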

Additional observations from a re-analysis of the deposited data

How the results depend on the processing

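The direction of all 5 members was the same in the 16 alternatives run. dre-miR-10c-5p passed in each. dre-miR-10c-3p passed at a mean above 7.5 TPM (0.76), with median-of-ratios scaling (0.70), with dre-miR-10c-5p left out of the totals (0.79) and with eBayes without a trend (0.76). With 1 library left out, the log2 fold change lay between 0.18 and 0.72 for dre-miR-10a-5p, 0.56 and 0.99 for dre-miR-10b-5p, 1.05 and 1.17 for dre-miR-10c-5p, 0.67 and 0.90 for dre-miR-10c-3p and -0.77 and -0.45 for dre-miR-10d-5p. In each case the value farthest from 0 was the one without control replicate 3. Over all alternatives the adjusted p from limma lay between 0.0019 and 0.817 for dre-miR-10a-5p, 5.4e-05 and 0.147 for dre-miR-10b-5p, 0.0019 and 0.053 for dre-miR-10c-3p and 0.0062 and 0.216 for dre-miR-10d-5p. The log2 difference of the summed members was 1.08 and 0.78 with clean reads as library sizes, and 1.03 to 1.16 with 1 library left out.

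Of all tested miRNAs 51 rose and 45 fell. Scaling to clean reads gave 32 higher and 77 lower calls, a share of higher calls of 29.4% against 53.1%. Totals that did not include dre-let-7a and dre-miR-100-5p, chosen after seeing the data, gave 37 and 64 (36.6%). With 1 library left out, between 24 and 68 rose and between 18 and 67 fell, the lowest without cold acclimation replicate 1 and the highest without control replicate 3. The cause was not tested.

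The log2 ratio of dre-miR-10b-5p to dre-miR-10c-3p, which differed by -0.06, turned to 0.0197 with log2(TPM + 5) and to 0.0922 without control replicate 3. With 1 library left out it lay between -0.15 and 0.09. The other 9 pairs kept their direction. The smallest p of the exact test was 0.2 there.

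The replicate numbers are shared by the conditions, but the labels do not say that they pair samples. The correlations of same-numbered deviations were 0.015, 0.14 and 0.060, so no pairing was used. Each library correlated best with its own number, a hint from the data alone. With the replicate block 39 rose and 30 fell, and the block changed no call on a member. The planned count tests with edgeR and DESeq2 were not run. The members had 321 reads or more in each library.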
